A study of Homo sapiens with 4 samples.

Results

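The ERBB receptors and the growth factors that bind them were followed in SUM149 cells exposed to ACY1215. The group held 10 genes of the 34755 named on the array: the 4 receptors EGFR, ERBB2, ERBB3 and ERBB4, and the 6 ligands AREG, EREG, HBEGF, TGFA, BTC and NRG1. Every probe that the deposited table assigns to 1 of these symbols was taken, which gave 19 of 58201 probes. SUM149 is a human line of inflammatory breast cancer cells, and ACY1215 (Ricolinostat) is an inhibitor of the deacetylase HDAC6. The 4 groups were untreated SUM149 cells and SUM149 cells kept for 3, 6 or 12 h with 2.5 uM ACY1215. Each group was 1 RNA sample on 1 two-colour Agilent array, with the sample in Cy5 and a common reference in Cy3. There was no replicate and no vehicle-treated group in the files used here, so no test between conditions was possible, and an effect of the hours in culture and one of the compound cannot be told apart.

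ERBB receptors are membrane tyrosine kinases that pair with each other once a ligand binds, and then signal through the RAS-ERK and PI3K-AKT routes. EGFR binds AREG, EREG, HBEGF, TGFA and BTC. ERBB3 and ERBB4 bind neuregulins such as NRG1, ERBB2 has no known ligand of its own and serves as the partner of the others, and ERBB3 has little kinase activity. The ligands are made as membrane-bound precursors that proteases such as ADAM17 and ADAM10 cut free, and tumour cells of the basal breast type often make both EGFR and its ligands.

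The promoters of the members with the largest changes are given first, so that their sequence can be set beside the values that follow. They come from RefSeq on build GRCh38.p14, run 5′ to 3′ on the strand of the gene and span 250 bases before to 50 after the annotated start. EGFR is at chr7:55018767-55019066 on the plus strand, EREG at chr4:74364895-74365194 and AREG at chr4:74444886-74445185 on the plus strand of the same chromosome, and HBEGF at chr5:140346554-140346853 on the minus strand. Capitals mark matches on either strand to 4 motifs: TGANTCA (AP-1), TGACGTCA (the cyclic AMP response element), GGGCGG (the GC box) and TATAAA (the TATA box).
EGFR promoter: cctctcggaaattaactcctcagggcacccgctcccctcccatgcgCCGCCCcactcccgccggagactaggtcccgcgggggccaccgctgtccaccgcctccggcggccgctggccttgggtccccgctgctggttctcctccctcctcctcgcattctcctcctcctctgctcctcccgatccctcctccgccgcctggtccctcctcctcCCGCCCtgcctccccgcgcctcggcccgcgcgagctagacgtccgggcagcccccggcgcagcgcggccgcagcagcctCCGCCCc
EREG promoter: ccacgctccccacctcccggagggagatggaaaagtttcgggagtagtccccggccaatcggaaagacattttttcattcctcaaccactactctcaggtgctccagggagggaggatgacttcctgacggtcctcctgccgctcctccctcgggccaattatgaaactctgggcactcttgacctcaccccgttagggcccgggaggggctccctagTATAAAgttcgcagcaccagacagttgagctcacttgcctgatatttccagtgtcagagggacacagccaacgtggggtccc
AREG promoter: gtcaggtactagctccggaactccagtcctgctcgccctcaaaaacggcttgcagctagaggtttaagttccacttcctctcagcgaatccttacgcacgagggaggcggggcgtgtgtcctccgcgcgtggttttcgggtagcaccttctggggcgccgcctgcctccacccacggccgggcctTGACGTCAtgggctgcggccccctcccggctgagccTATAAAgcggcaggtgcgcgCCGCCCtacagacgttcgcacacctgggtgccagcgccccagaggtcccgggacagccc
HBEGF promoter: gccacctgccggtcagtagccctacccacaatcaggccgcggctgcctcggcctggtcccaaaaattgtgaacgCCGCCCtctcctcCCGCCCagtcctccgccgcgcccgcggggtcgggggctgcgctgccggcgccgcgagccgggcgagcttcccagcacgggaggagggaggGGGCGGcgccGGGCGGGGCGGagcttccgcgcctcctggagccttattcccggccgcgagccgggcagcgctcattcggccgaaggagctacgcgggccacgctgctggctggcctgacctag

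The EREG window held 1 motif match, a TATAAA at -32 from the annotated start. The AREG window held a TATAAA at -29, a TGACGTCA at -65 and a GGGCGG, read on the opposite strand, at -9. Of 35116 promoters of the same length, 11.5% held TATAAA and 1.85% held TGACGTCA. The EGFR window held 3 GC boxes and the HBEGF window 5, 2 of which overlap, and neither held any of the other 3 motifs. GGGCGG was found in 45% of all promoters, and TGANTCA, which was in none of the 4 printed windows, in 7.71%. These matches are letters in a window and were not tested for binding.

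The arrays carried 62976 spots each, with a median Cy5 signal of 36 to 40 units over a local background of 24, and 0 saturated spots. Damaged areas covered 3.38% of the untreated array and 4.71% of the 3 h array, against 0.199% at 6 h and 0.00821% at 12 h, and 2 member probes lay in such an area, both on the 3 h array. On probes with at least 9 spots (300 probes) the SD of a log2 change between spots was 0.15 at 3 h, 0.12 at 6 h and 0.12 at 12 h. This SD is the only error available, and it covers spots of 1 hybridisation, not cultures. It was pooled over these probes without matching for brightness, and whether it holds for dim probes was not tested. All 5 epithelial and all 5 basal epithelial markers were well above background in untreated cells, with EPCAM at 19060 units and KRT5 at 7058, and so were 3 of 4 luminal hormone receptor markers, ESR1 at 176 units, FOXA1 at 298.5 and GATA3 at 517. The progesterone receptor PGR was at 0 units. The 11 leukocyte, endothelial and fibroblast markers were also all flagged above background, at 6 to 747 units.

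The log2 ratio of Cy5 over Cy3 sets each gene against the reference. The labels describe this reference as a pool of the SUM149 samples, but the members' signals differ from what such a pool would give. EREG gave 33 to 49 units in Cy3 against 1446 to 3038 in Cy5, and was brighter in Cy5 on 4 of 4 arrays by 26.9-fold to 45.4-fold with an offset of 1. The offset is a constant added to both channels after background correction, which was 50 units for the values given below, and which steadies dim probes but shrinks their ratios. A pool of those 4 samples would lie between them. The ratio is therefore used here only to carry the change from the untreated array. Because each probe has its own brightness, levels are compared between arrays and not between genes.

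In untreated cells 9 of the 10 members were well above background in Cy5, by the flag that the scanner software sets for each spot, and ERBB4 was not. Over all genes of the array 64.1% were. In the treated cells 8 members could be followed at each time: ERBB4 and BTC were left out because a channel was not well above background on the untreated array. None of the 8 reached a 2-fold change at 3, 6 or 12 h. Among all genes 1.69% were at least 2-fold higher and 0.366% at least 2-fold lower at 3 h, 2.81% and 0.939% at 6 h, and 2.34% and 1.12% at 12 h, so that a count of 0 among 8 genes is close to the background. The median change of the 8 members was 0.028, 0.043 and 0.026 on the log2 scale at the 3 times, beside 0.0075, 0.016 and 0.014 over all genes measured. By direction, 5 were higher and 3 lower at 3 h and at 6 h, and 4 were higher and 4 lower at 12 h. The values nearest the threshold were those of the ligand EREG (higher) and of HBEGF (higher), and on the other side that of the receptor EGFR (lower).

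**Figure D1:**
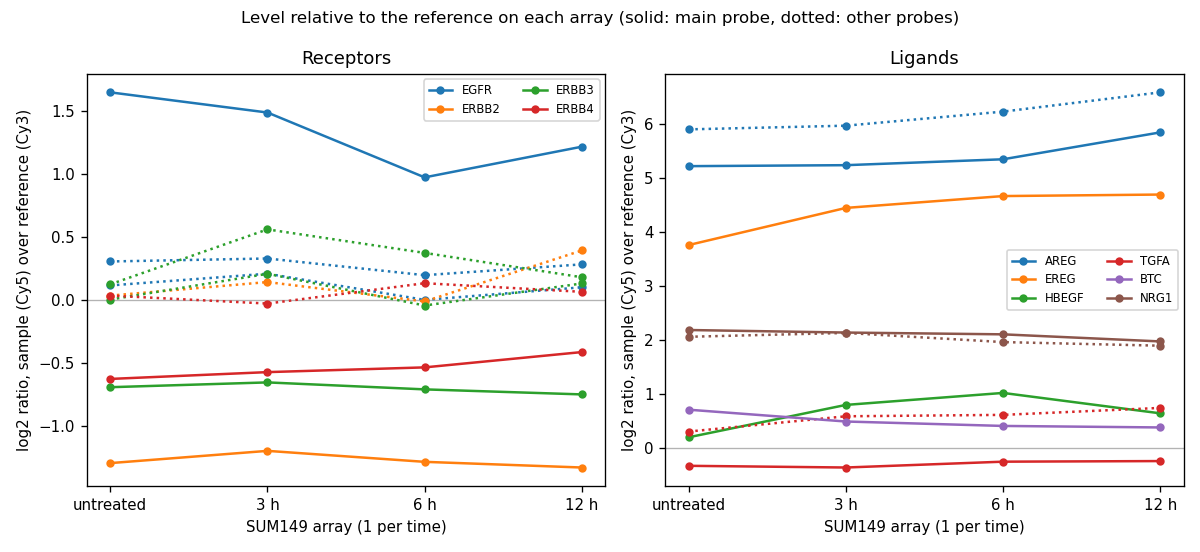
Log2 ratio of Cy5 over Cy3 (y axis) for each probe of the 4 receptors (left) and 6 ligands (right) on the untreated, 3, 6 and 12 h arrays (x axis, not to time scale), 1 array per time; solid lines are the probe that represents a gene and dotted lines its other probes. EGFR drops from 1.65 to 0.97 at 6 h, and EREG climbs from 3.76 to 4.69 at 12 h, while ERBB2 and ERBB3 stay nearly level.

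EGFR, the receptor of most ligands in the group, was the only receptor whose main probe moved away from its untreated level by several times the spread between spots. Its log2 ratio was 1.65 in untreated cells, 1.49 at 3 h, 0.97 at 6 h and 1.22 at 12 h. The corresponding Cy5 signals over background were 950.5, 936, 514 and 527 units, with Cy3 between 199 and 214 units. The 2 later arrays were thus the low ones, and the 6 h array was the lowest in ratio. The change from untreated was -0.16 at 3 h, -0.67 at 6 h (1.60-fold lower) and -0.43 at 12 h (1.35-fold lower), or 1.04, 5.61 and 3.73 times the SD between spots. The 6 h and 12 h ratios differed by 0.24, more than the SD of 0.078 for that pair.

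The values above are those of the probe for the full-length EGFR transcript. A second probe, annotated to a shorter EGFR transcript variant, gave 66, 70.5, 47 and 45.5 units in Cy5 on the 4 arrays in time order, and its changes of 0.024, -0.11 and -0.023 all lay within 1 SD. The remaining probe, for another short variant, gave 7 to 12 units and changed by 0.093, -0.11 and -0.015. Both are dim, and an offset of 50 units shrinks the changes of dim probes. Averaging all 3 probes moved the EGFR change to -0.30 at 6 h and -0.16 at 12 h. In the Cy5 channel alone the main probe gave -0.17, -0.67 and -0.52. The second probe gave -0.021, -0.20 and -0.15 there, beyond the SD between spots at 6 h and 12 h.

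ERBB2, the shared partner of the family, was printed 10 times on each array and had the most spots of any member. The mean log2 ratio was -1.29 ± 0.16 in untreated cells, -1.20 ± 0.22 at 3 h, -1.28 ± 0.10 at 6 h and -1.33 ± 0.075 at 12 h (SD, n = 10 spots). The ranges of spots overlapped on all 4 arrays. The change from untreated was 0.097 ± 0.18, 0.0093 ± 0.14 and -0.035 ± 0.15 (SD, n = 10 spots), and 4, 5 and 7 of the 10 spots were below 0 at the 3 times. No difference was detectable at this spread, and the spots are not independent samples. A second ERBB2 probe, at 22.5 to 37 units, gave 0.11, -0.046 and 0.36.

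**Figure D2:**
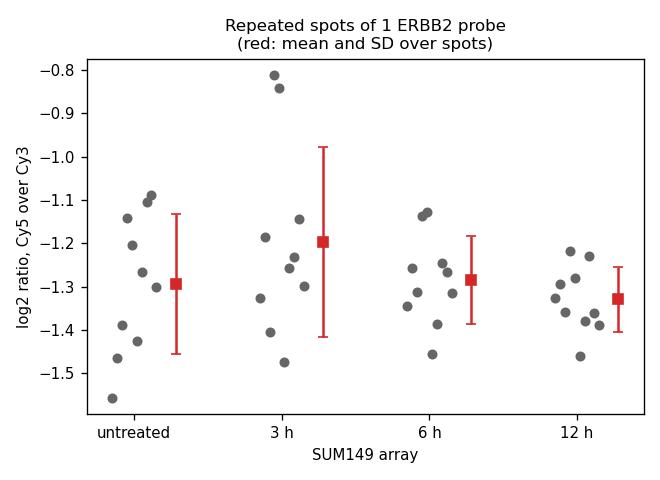
Log2 ratio of Cy5 over Cy3 (y axis) of the 10 spots of 1 ERBB2 probe on each array (x axis), as grey points, with the mean and SD over spots in red. The means lie between -1.33 and -1.20, and the spots of the 4 arrays overlap.

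ERBB3, the neuregulin receptor that signals through its partners, was also level on its main probe. Its log2 ratio was -0.69 in untreated cells, -0.65 at 3 h, -0.71 at 6 h and -0.75 at 12 h. The changes of 0.038, -0.017 and -0.057 were all within 1 SD of a spot. A second probe, for a shorter transcript variant, gave 126.5, 74, 168 and 154 units in Cy5 and changes of 0.44, 0.25 and 0.056. Its 3 h spot lay in a damaged area, with Cy3 at 21.5 units against 96 to 140 on the other arrays, and in Cy5 alone its 3 h change was -0.56. The direction at 3 h thus differed between the ratio and the sample channel, and the part of the damage in this was not tested. The remaining ERBB3 probe gave 6 to 9 units.

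ERBB4, the other neuregulin receptor, was near background. Its main probe gave 4, 7, 1 and 5 units in Cy5 on the untreated, 3, 6 and 12 h arrays, and its second probe -1 to 2 units. It was flagged above background at 3 h and 12 h only. Its normalized Cy5 value there was 1.03-fold and 1.06-fold its own value on the untreated array, where it was not above background. These differences are too near 1 to tell the times apart. In Cy3 the main ERBB4 probe was brighter, at 26 to 35 units.

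**Figure D3:**
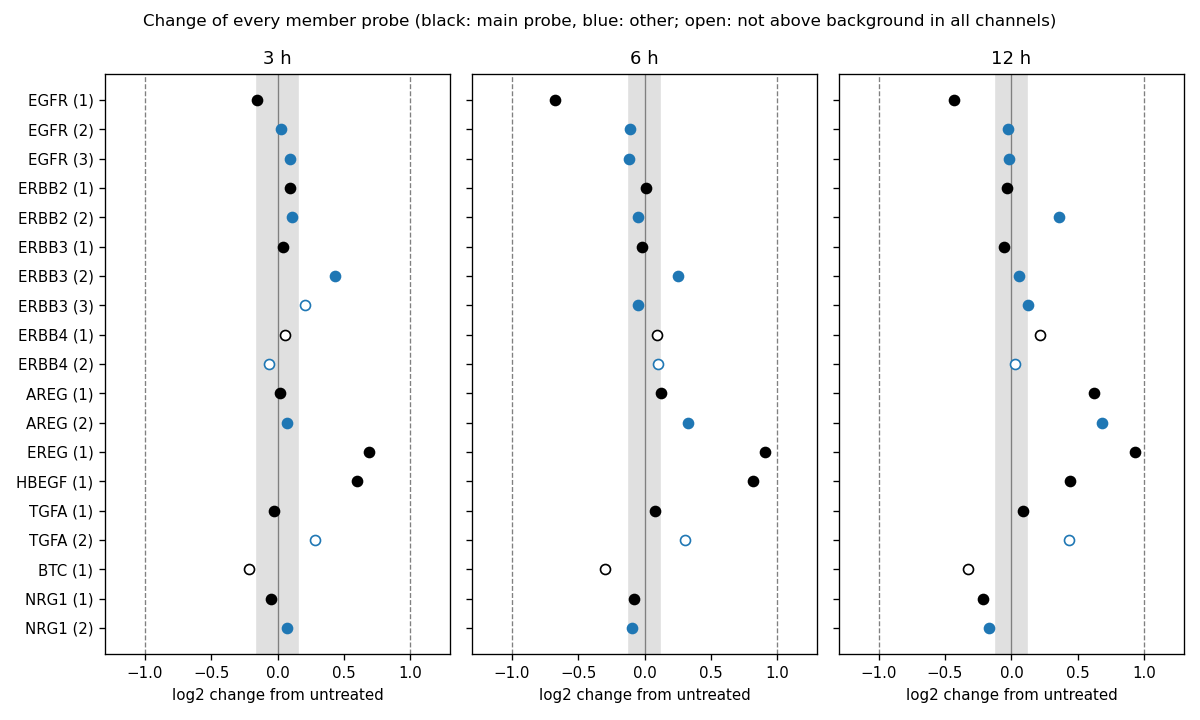
Log2 change from untreated (x axis) of all 19 member probes (y axis) at 3, 6 and 12 h; black points are the probe that represents a gene, blue points its other probes, open points were not above background in every channel, the grey band is ± 1 SD between spots and dashed lines mark 2-fold. EREG, HBEGF and, at 12 h, both AREG probes lie to the right of the band, EGFR's main probe lies to its left, and no probe reaches 2-fold. Other probes also leave the band. Among them are BTC (left) and the second TGFA probe (right) at every time, both open, and both NRG1 probes (left) at 12 h. The second ERBB3 probe at 3 h and 6 h and the second ERBB2 probe at 12 h lie to the right.

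Among the ligands, EREG (epiregulin, which binds EGFR and ERBB4) had the largest change at all 3 times with the main processing. The order depended on the setting: with an offset of 1, with no background subtraction, with the ratio made by Agilent's Feature Extraction software and in the authors' table, HBEGF was above EREG at 3 h and 6 h, and with Feature Extraction's ratio AREG was above it at 12 h. The log2 ratio of EREG was 3.76 in untreated cells, 4.45 at 3 h, 4.67 at 6 h and 4.69 at 12 h, from 1446, 3038, 2791 and 2791 units in Cy5. All 3 treated arrays lay above the untreated one, with 6 h and 12 h differing by only 0.027, less than the SD for that pair. The change was 0.69, 0.91 and 0.93, or 1.61-fold, 1.87-fold and 1.91-fold higher. These are 4.49, 7.53 and 8.06 times the SD between spots. In Cy5 alone the changes were 0.89, 1.10 and 1.22, of which the last 2 pass 2-fold, and Feature Extraction's ratio gave 0.20, 0.64 and 0.59. All 9 alternatives kept the direction at each time. Among these, leaving out the filter on dim probes and averaging a gene's probes could not change EREG, which had no other probe.

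AREG (amphiregulin, an EGFR ligand) differed from untreated mainly at 12 h. Its main probe had log2 ratios of 5.22, 5.24, 5.35 and 5.84 on the untreated, 3, 6 and 12 h arrays. The Cy5 signal was 47240, 52290, 45420 and 51900 units before scaling between arrays, and no spot was marked as saturated. The change was 0.017 at 3 h, 0.13 at 6 h and 0.62 at 12 h (1.54-fold higher), or 0.114, 1.05 and 5.39 times the SD between spots. The second AREG probe, with 17470, 15070, 18050 and 24170 units, gave 0.068, 0.33 and 0.68. By the log2 ratio, both probes put the 12 h array highest and the 3 h array within 1 SD of untreated. In unscaled Cy5 signal the main probe was highest at 3 h. With each array's ratios centred on their median (median centring) in place of loess, a dye correction that depends on signal, the median of all genes moved to -0.16 at 12 h. The 12 h change of AREG was then 0.21 and its 6 h change turned to -0.11.

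HBEGF (heparin-binding EGF-like growth factor) was dim but higher on every treated array. Its log2 ratio was 0.21 in untreated cells, 0.80 at 3 h, 1.03 at 6 h and 0.65 at 12 h, from 45.5, 75, 127 and 82 units in Cy5. The 6 h array was the highest in both ratio and signal. The change was 0.60 at 3 h (1.51-fold), 0.82 at 6 h (1.77-fold) and 0.44 at 12 h (1.36-fold), or 3.92, 6.82 and 3.82 times the SD. The 3 h spot lay in a damaged area, where Cy3 was 10 units against 27 to 36 on the other arrays, and in Cy5 alone the 3 h change was 0.28. With an offset of 1 in place of 50, HBEGF was higher by 1.31 at 3 h, 1.22 at 6 h and 0.69 at 12 h, past 2-fold at the first 2 times.

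**Figure D4:**
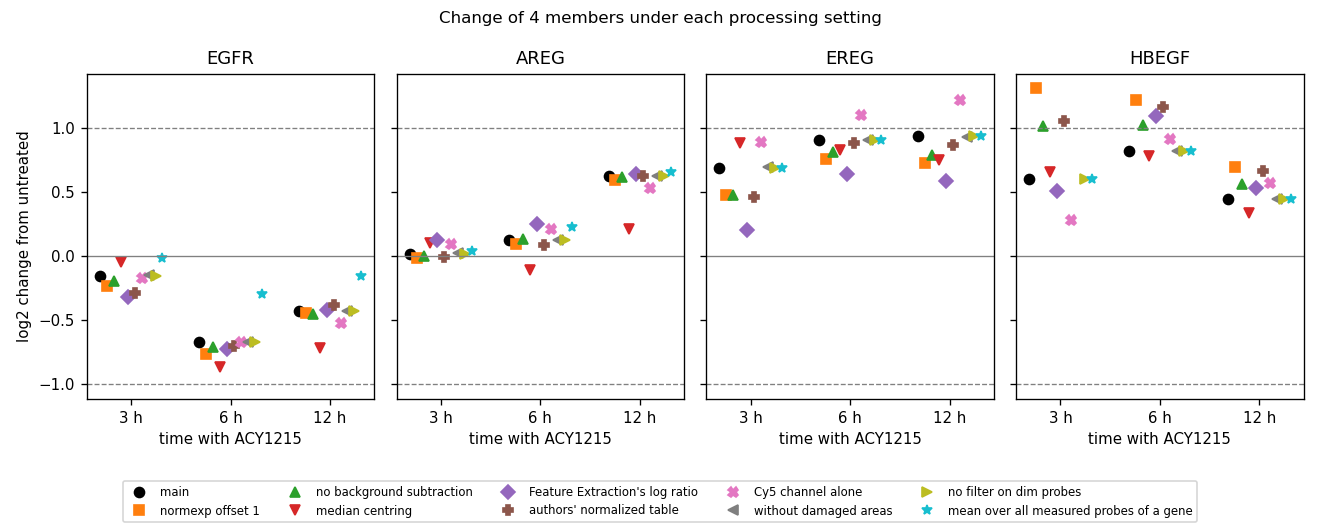
Log2 change from untreated (y axis) of EGFR, AREG, EREG and HBEGF at 3, 6 and 12 h (x axis) in the main setting (black) and under the alternatives of processing; dashed lines mark 2-fold. EGFR lies below 0 and EREG and HBEGF above 0 in every setting, whereas AREG at 6 h runs from -0.11 to 0.25.

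TGFA (transforming growth factor alpha, the classic EGFR ligand of tumour cells) was level on its main probe. The log2 ratio was -0.32, -0.35, -0.24 and -0.23 on the untreated, 3, 6 and 12 h arrays, at 1020 to 1282 units in Cy5. Its changes of -0.031, 0.076 and 0.088 were all within 1 SD. The other TGFA probe was not above background in Cy3 on any array. In Cy5 it gave 15, 29, 29 and 32 units, lowest in untreated cells, and its change ran to 0.44 at 12 h. With an offset of 1 its changes were 1.02, 0.94 and 1.38, from ratios whose Cy3 signal was -4 to -1 units.

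BTC (betacellulin, which binds EGFR and ERBB4) could be described in Cy5 only. It gave 47 units in untreated cells, 37 at 3 h, 37 at 6 h and 22 at 12 h, so that the untreated array was the highest and the 12 h array the lowest. In Cy5 alone the changes were -0.19, -0.11 and -0.32.

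NRG1 (neuregulin 1, the ligand of ERBB3 and ERBB4) had a log2 ratio of 2.19, 2.14, 2.11 and 1.98 on its main probe, from 478.5, 574, 381 and 349 units in Cy5. Its change was -0.047 at 3 h, -0.080 at 6 h and -0.21 at 12 h, and only the last exceeded 1 SD. The second NRG1 probe gave 0.071, -0.098 and -0.17. Both probes put the 12 h array lowest.

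The genes whose 3 changes were nearest those of EREG, by Euclidean distance over 18546 genes with signal well above background in all 4 hybridisations, were TSPYL1 (distance 0.0394), LINC01137 (0.0430) and TBC1D9 (0.0520). TSPYL1 changed by 0.69, 0.94 and 0.94. This likeness rests on 3 values that share 1 untreated array.

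Of 5 further ERBB ligands, 2 were measured at each time and neither reached 2-fold. EPGN (epigen, an EGFR ligand on the chromosome that also carries EREG, AREG and BTC) gave 894, 725, 575.5 and 751 units in Cy5. Its changes were -0.26, -0.29 and 0.067, below 0 at 3 h and 6 h. That sign depended on the setting: Feature Extraction's ratio gave 0.34 and 0.17 at these times, and an offset of 1 gave -0.010 and 0.0063. NRG4, at 5.5 to 9 units, changed by -0.13, 0.015 and -0.048. EGF, NRG2 and NRG3 were not above background in untreated cells.

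The 6 genes of ligand release were all measured, and 0 reached 2-fold. Their median change was -0.055, -0.015 and -0.093. ADAM17, the main sheddase of AREG, EREG, HBEGF and TGFA, gave 794 units in untreated cells and 1131, 1018 and 1000 at 3, 6 and 12 h, a change of 0.44, 0.66 and 0.79. ADAM10, which cuts BTC, was at 156 units in untreated cells and 167 to 207 with ACY1215, and changed by 0.23, 0.38 and 0.43. Of the 6 genes 3 were higher and 3 lower at 3 h and at 6 h, and 2 higher and 4 lower at 12 h. RHBDF1 and RHBDF2, partners of ADAM17, and FURIN, a protease that matures it, were below their untreated value at all 3 times, with changes between -0.41 and -0.14 (named after their values were seen). In Cy5 alone the 3 h change of RHBDF2 was 0.027. The changes of RHBDF1 in Cy5 alone were -0.0069, -0.095 and -0.067, all smaller than the SD between spots.

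Genes known to inhibit, ubiquitinate, dephosphorylate or sort the receptors (the receptor restraint list) had the highest median of the 5 lists at each time. These roles differ, so the list median is not a measure of restraint alone. Of the 12 genes, 11 were measured: 10 were higher at 3 h, 11 at 6 h and 10 at 12 h. Among all genes measured, 10678 of 20766 were higher at 3 h, 10733 of 20342 at 6 h and 10745 of 20479 at 12 h. The list had a median change of 0.43, 0.47 and 0.42, beside the median near 0 of all genes given above. At 3 h 2 reached 2-fold, at 6 h 2 and at 12 h 0, where 1.69%, 2.81% and 2.34% of all genes were at least 2-fold higher. ERRFI1 (MIG6, which binds and inhibits the EGFR kinase) gave 2001 units in untreated cells and 2838, 3523 and 2913 with ACY1215, a change of 0.88, 1.11 and 0.88. CBL, a ubiquitin ligase that marks EGFR for breakdown, changed by 1.04, 1.09 and 0.79, and its relative CBLB by 1.10, 0.91 and 0.66. In Cy5 alone the 3 h changes were 0.37 for ERRFI1, 0.19 for CBL and 0.25 for CBLB, whose spot lay in a damaged area, and the list median was 0.25, 0.40 and 0.25. With median centring the list median at 12 h was 0.018, against -0.16 for all genes.

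Of the 26 adaptors and kinases downstream of the receptors, 25 were measured, with a median change of 0.081, 0.091 and 0.042 at 3, 6 and 12 h. The list was mixed in direction, with 16 genes higher at 3 h and 15 at 6 h and at 12 h.

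The 15 genes known to be induced by ERK signalling were all measured and moved in both directions, with 7, 8 and 9 higher and a median of -0.088, 0.14 and 0.022. DUSP5, a phosphatase that acts on ERK, gave 98, 461, 423 and 304.5 units on the 4 arrays, a change of 1.25, 1.48 and 1.08. FOS changed by 0.81, 1.09 and 0.43, from 214, 466, 390 and 208 units. MYC gave 8375 units in untreated cells, 4411 at 3 h, 3025 at 6 h and 4564 at 12 h, a change of -0.90, -1.07 and -0.35. At 6 h 2 genes of this list were past 2-fold higher and 1 past 2-fold lower, against 1 higher and 0 lower at 3 h and at 12 h. Over all genes 1.69%, 2.81% and 2.34% were past 2-fold higher at 3, 6 and 12 h, and 0.366%, 0.939% and 1.12% lower.

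**Figure D5:**
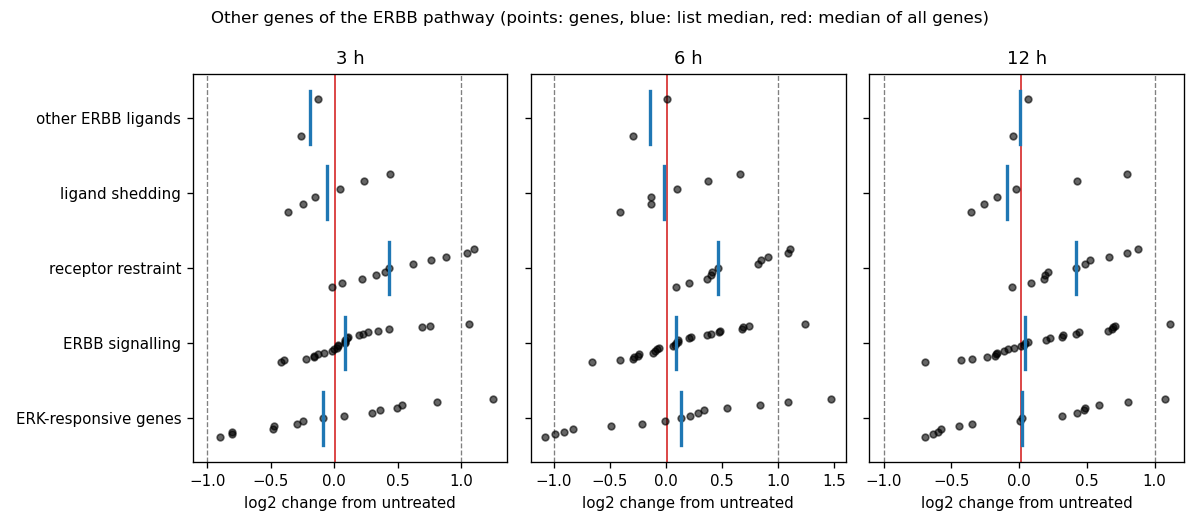
Log2 change from untreated (x axis) of the measured genes of 5 lists of the ERBB pathway (y axis) at 3, 6 and 12 h; points are genes, blue bars the list median, the red line the median of all genes measured and dashed lines 2-fold. The receptor restraint list has medians of 0.43, 0.47 and 0.42, and the other lists scatter around the median of all genes.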

How the data were processed

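RNA of 4 samples (untreated SUM149 cells and cells with 2.5 uM ACY1215 for 3, 6 and 12 h) was measured on 1 two-colour Agilent array each. The authors deposited the intensity of every spot with its local background and flags, a log10 ratio made by Agilent Feature Extraction, and a table of log2 ratios whose normalization is not given in the sources used here; across probes that table correlated at 0.994 or higher on each array with the values obtained here with an offset of 1.

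Median spot signals were background-corrected (normexp, offset 50), control spots were dropped, flagged spots set aside, and arrays normalized by loess and Aquantile with limma 3.58.1 under R 4.3.3. A probe's value was the mean over its spots, and each gene was represented by its brightest probe in Cy3. A gene was measured when Cy5 and Cy3 were both well above background on the 2 arrays compared, and called at a log2 change of 1 (2-fold). A damaged area was a window of 13 rows by 7 columns with at least 10% defective spots. Tables and motifs were handled in Python 3.11.15 with pandas 2.3.3 and numpy 2.4.6.

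The members and lists were chosen with earlier results of these data known. All members were named, and of each list the measured genes past 2-fold at any time, or else the 2 with the largest 12 h change. Single genes of the list of adaptors and kinases are not reported here. Tested on simulated data of the untreated array, the pipeline put 100% of 52 bright planted spots past 2-fold. Bright meant at least 300 units over background in both channels. Of 148 dim spots, under 300 units in either channel, 37.2% passed 2-fold, against 99.3% with an offset of 1. Among the measured members, the main probes of EGFR, ERBB2, ERBB3, EREG, HBEGF and NRG1 were dim by this rule on the untreated array. The planted changes were all larger than 2-fold, and the noise was small and scaled with the signal over a known background. The shares therefore do not show how a change of just 2-fold, or a real dim spot such as that of HBEGF, would fare.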

Additional observations from a re-analysis of the deposited data

How the results depend on the processing

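Of 215 values of members under alternative settings, 164 moved by less than the SD between spots and 51 by more. Some of the 164 could not move. Leaving out the filter on dim probes returns the main value of each member, as does averaging probes for EREG, HBEGF and TGFA. EGFR, EREG and HBEGF kept their sign at every time under every alternative run, whereas AREG, ERBB2, ERBB3, NRG1 and TGFA, whose changes were small at 1 or more times, changed sign at some. The counts of members past 2-fold, 0 in the main setting, depended on the setting. At 3 h the count of higher members was 1 with an offset of 1, with no background subtraction and in the authors' table (HBEGF each time), and 2 at a threshold of 1.5-fold. At 6 h it was 1 with an offset of 1, with no background subtraction, with Feature Extraction's log ratio and in the authors' table (HBEGF each time), 1 in Cy5 alone (EREG), and 2 at 1.5-fold, where 1 member (EGFR) was also lower. At 12 h it was 1 in Cy5 alone (EREG) and 2 at 1.5-fold. The count of 9 members well above background in untreated cells stayed within 1.5 times of itself. Median centring moved the median of all genes to 0.076, -0.084 and -0.16 at 3, 6 and 12 h. Of the list medians 119 of 135 moved by less than the SD. Leaving out a replicate was not possible with 1 array per group. No paired analysis was possible because each group holds 1 array. Dim signals limit HBEGF, BTC and ERBB4 most: an offset of 50 units shrinks their changes, and a smaller offset widens their error. EREG, dim in Cy3 only at 33 to 49 units, went the other way. With an offset of 1 its changes were smaller, at 0.48, 0.76 and 0.72.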

Other observations

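The array also carried 11 transcripts named after a member, chosen by symbol, of which 4 were measured at 12 h and 0 reached 2-fold there. ERBB2IP (erbin, a protein that binds ERBB2) gave 1448 units in untreated cells and changed by 0.24 at 3 h, -0.024 at 6 h and 0.14 at 12 h. EGFR-AS1, the antisense transcript of EGFR, was at 10.5 units and changed by 0.0099, 0.071 and 0.16 (with an offset of 1 the 6 h change was -0.043). Its 3 h and 6 h changes were within the SD between spots. Of the transcripts named after HBEGF, lnc-HBEGF-1 was at 11 units and changed by 0.049, 0.0014 and 0.027. The other, lnc-HBEGF-2, was at 17 units and changed by -0.19, -0.27 and -0.11, or by -0.62, -0.96 and -0.33 with an offset of 1.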
